A study of Mus musculus with 6 samples.

Results

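The AP-1 transcription factors of the Fos and Jun families were followed between 2 and 8 months of age in the degenerating central retina of rd1/rd1 mice. The members were Fos, Fosb, Fosl1 and Fosl2 on the Fos side and Jun, Junb and Jund on the Jun side, and every array probe whose annotation gives 1 of these symbols alone was used. This rule found 9 of the 45281 probes on the array, for 6 of the 7 genes: Fos, Fosb, Jun and Jund had 1 probe each, Junb had 2 and Fosl2 had 3. Fosl1 was not analysed here.

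The 6 samples were Illumina bead arrays of total RNA, 3 from mice 2 months old and 3 from mice 8 months old. Every mouse of both ages carried the rd1/rd1 genotype, a mutation of the rod phosphodiesterase gene Pde6b that removes rods and later cones, and none was treated. Each sample pooled 3 to 6 punches of central retina, 1.5 mm wide, and the number of animals in a pool is not stated, so that p-values measure the spread between pools. Neither wild-type mice nor ages before rod loss were among the samples, and the comparison asked what changes late in the disease.

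AP-1 is a family of paired basic leucine zipper proteins. Fos proteins bind DNA only when paired with a partner such as a Jun protein, whereas Jun proteins also pair with each other. Fos, Fosb and Junb are immediate early genes, transcribed within minutes of calcium entry or growth factor signalling, and in the retina Fos is a common marker of light-driven and other neuronal activity. Jun is known for its activation by JNK kinases in injured neurons, and Jund is expressed steadily in many tissues.

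The stretches before the transcription start of 4 members are shown because the cAMP response element, the site through which Creb1 and its relatives act, is a known control site of Fos. Capitals mark each TGACG, the core of that element, found by search of both strands. The sequences are from RefSeq, build GRCm38.p6, and run 5′ to 3′ on the gene's strand over the 150 bases before the annotated start. They cover chr12:85473740-85473889 (plus strand) for Fos, chr7:19310046-19310195 (minus strand) for Fosb, chr8:84978749-84978898 (minus strand) for Junb and chr4:95052223-95052372 (minus strand) for Jun.
Fos: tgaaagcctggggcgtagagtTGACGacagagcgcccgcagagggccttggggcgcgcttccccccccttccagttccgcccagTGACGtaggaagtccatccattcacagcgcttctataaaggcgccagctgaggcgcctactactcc
Fosb: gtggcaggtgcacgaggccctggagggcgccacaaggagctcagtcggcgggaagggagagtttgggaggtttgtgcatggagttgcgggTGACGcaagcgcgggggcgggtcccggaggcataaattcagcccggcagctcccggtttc
Junb: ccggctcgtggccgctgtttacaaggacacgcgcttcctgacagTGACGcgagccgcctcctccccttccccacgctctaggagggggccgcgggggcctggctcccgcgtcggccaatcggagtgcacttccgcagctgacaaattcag
Jun: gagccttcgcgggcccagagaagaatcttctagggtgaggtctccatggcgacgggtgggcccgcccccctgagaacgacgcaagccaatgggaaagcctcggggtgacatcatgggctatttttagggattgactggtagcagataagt

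The full window searched ran from 250 bases before the start to 50 after it, and 6 of 7 members had one in the table. TGACG was found at 129 and 66 bases before the start in Fos, at 60 in Fosb and at 106 in Junb, counted to the first base of the match. It was not found in the windows of Fosl2, Jun and Jund. Of all 32851 windows in the table, 20.8% held TGACG on either strand. The complete palindrome TGACGTCA, which contains TGACG, was in 1.79% of all windows, the AP-1 site TGACTCA in 5.2% and the CArG box, to which serum response factor binds, in 1.63%, and none of the 3 was in a window of these genes. The Egr-type motif GCGNGGGCG, held by 5.55% of all windows, lay at 50 bases before the start in Fosb and at 79 in Fosl2. These matches describe the letters only, and sites further from the start were not searched. Only exact strings were counted, so variants were missed. The printed Jun stretch holds tgacatca, which differs from TGACGTCA in a single letter. A lack of capitals in Jun is therefore not a lack of related sites.

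Levels are deposited log2 values, and differences are 8 months minus 2 months. A probe was tested when it lay above its own array's median, 7.19, on at least 3 arrays, and each gene was represented by its brightest such probe. This left 12046 genes. All 6 AP-1 genes passed, each with its probe above the median on all 6 arrays and so at both ages. Beside them, 2 probes of Fosl2 and 1 of Junb did not pass. Adjusted p-values are from limma with Benjamini-Hochberg adjustment over the 12046 genes, with a threshold of 0.05.

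Of the 6 genes, 1 rose, Fosb, and 0 fell, against 0.158% of all tested genes called higher, 0.0664% called lower and 0.224% called in either direction (limma). At an unadjusted p below 0.05, 3 were higher and 0 lower, where 5.1% of all genes were higher and 5.34% lower. The 8 month samples lay above the 2 month samples without overlap for 3 of the 6, against 7.45% of all genes, and 15% did not overlap in either direction. These 3 were Fos, Fosb and Fosl2, the whole measured Fos side, while each of the 3 Jun-side genes overlapped. All 6 changes were positive, as were 6046 of all 12046 tested genes, and those of Jun and Jund were smaller than their SE. The median of the 6 was 0.41 on the log2 scale, beside 0.0005 over all tested genes.

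**Figure D1:**
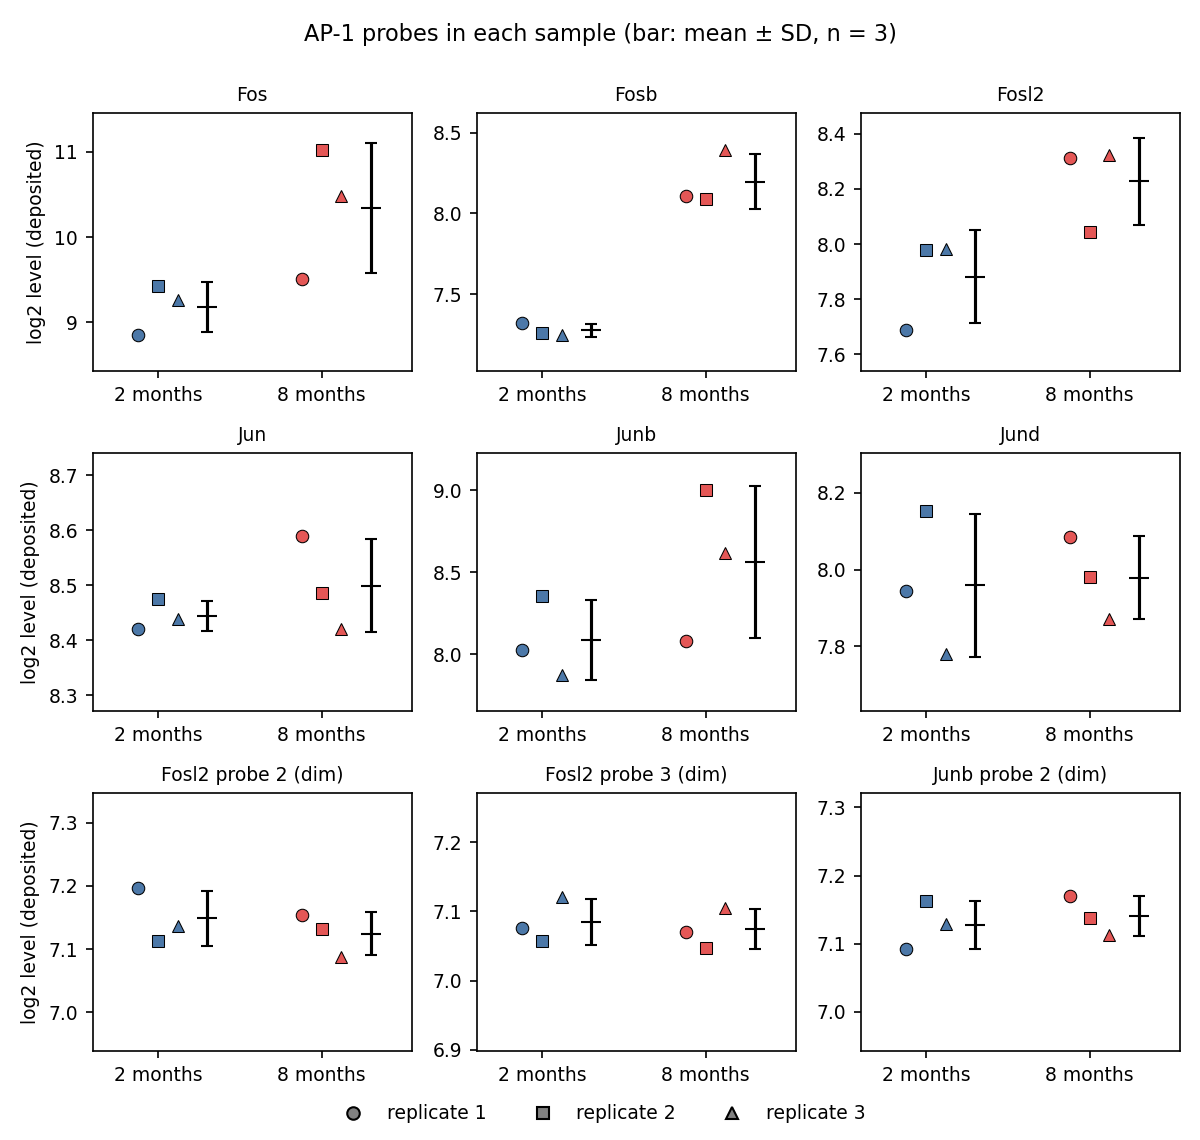
Deposited log2 level of each AP-1 probe in the 6 samples, 2 months in blue and 8 months in red, with mean ± SD of the 3 samples beside them; each panel has its own vertical scale, and marker shapes give the replicate. The ages are apart for Fos, Fosb and Fosl2 and overlap for Jun, Junb and Jund and for the 3 dim probes.

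Fosb, whose transcript also yields the truncated and long-lived ΔFosB protein in repeatedly active neurons, gave the firmest difference. Its levels were 7.32, 7.26 and 7.25 in 2 month replicates 1 to 3 and 8.11, 8.09 and 8.39 in 8 month replicates 1 to 3. The lowest 8 month sample was 0.77 above the highest 2 month sample. Fosb rose by 0.92 (SE 0.0857, n = 3 per age, 95% interval 0.72 to 1.12), a 1.90-fold difference (limma adjusted p = 0.0169). By its p-value it was number 6 among the 12046 genes, and by the size of its rise number 9. The array has 1 probe for the gene, so the splice forms cannot be told apart.

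At 2 months Fosb was close to the array median of 7.19, near background, where differences are compressed. For background subtraction, the 5th percentile of each array was taken off the unlogged values, with negative results set to 0. An offset of 16 was then added before log2 was taken again, and no other offset was tried. The change of Fosb was then 2.28 instead of 0.92, or 4.85-fold (limma adjusted p = 0.000553). The size of the rise therefore depends on the background, while its direction did not change in any of the 19 alternatives. The call was lost when replicate 1 or 2 of the 2 month samples or replicate 1 of the 8 month samples was left out (changes 0.95, 0.91 and 0.97, limma adjusted p = 0.101, 0.055 and 0.0765), and with no filter on dim probes (adjusted p = 0.0501).

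Fos, the founding member and the usual activity marker, was at 8.86, 9.42 and 9.26 at 2 months and at 9.51, 11.02 and 10.48 at 8 months, in replicate order. All 8 month samples were higher, but 8 month replicate 1 was only 0.09 above the highest 2 month sample. The mean went from 9.18 ± 0.292 (SD, n = 3) to 10.34 ± 0.766. The change of 1.16 (SE 0.353, 95% interval 0.33 to 1.98) was number 4 among the rises of all 12046 genes, but the spread between 8 month samples was wide and it did not pass (limma adjusted p = 0.306). Leaving out 8 month replicate 1 gave 1.57, and leaving out replicate 2 of that age gave 0.82.

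Fosl2, also called Fra-2, which codes for a Fos protein without the strong activation domain of Fos and FosB, was at 7.69, 7.98 and 7.98 at 2 months and at 8.31, 8.05 and 8.32 at 8 months at its tested probe. The ages did not overlap, with a gap of 0.06. The change was 0.35 (SE 0.107, 95% interval 0.09 to 0.60) and did not pass (limma adjusted p = 0.314). The other probes of Fosl2 lay between 7.05 and 7.20 in every sample, at or near background, with changes of −0.02 (SE 0.0329) and −0.01 (SE 0.0294) in a fit over all probes. A probe at background has little room to change.

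On the Jun side, Junb, an immediate early gene that pairs with Fos proteins and often dampens Jun, was at 8.03, 8.36 and 7.88 at 2 months and at 8.08, 9.00 and 8.61 at 8 months. Of the 8 month samples, replicate 1 lay within the range of the 2 month samples. The change was 0.48 (SE 0.228, 95% interval −0.06 to 1.01, limma adjusted p = 0.551). It was number 38 among the rises of all genes, and went from 0.26 without 8 month replicate 2 to 0.72 without 8 month replicate 1. The other probe of Junb lay between 7.09 and 7.17, with a change of 0.01 (SE 0.0298).

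Jun, which forms the classical AP-1 pair with Fos, was at 8.42, 8.47 and 8.44 at 2 months and at 8.59, 8.49 and 8.42 at 8 months. The ages overlapped, and their lowest values were alike. Its change was 0.05 (SE 0.0572, limma adjusted p = 0.839), and the 95% interval of −0.08 to 0.19 leaves room for a rise of up to 1.14-fold on this scale. Jund, the member least tied to stimulation, was at 7.95, 8.15 and 7.78 at 2 months and at 8.09, 7.98 and 7.87 at 8 months, with a change of 0.02 (SE 0.101, 95% interval −0.22 to 0.26, limma adjusted p = 0.976). The highest and the lowest of its 6 values were both at 2 months.

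**Figure D2:**
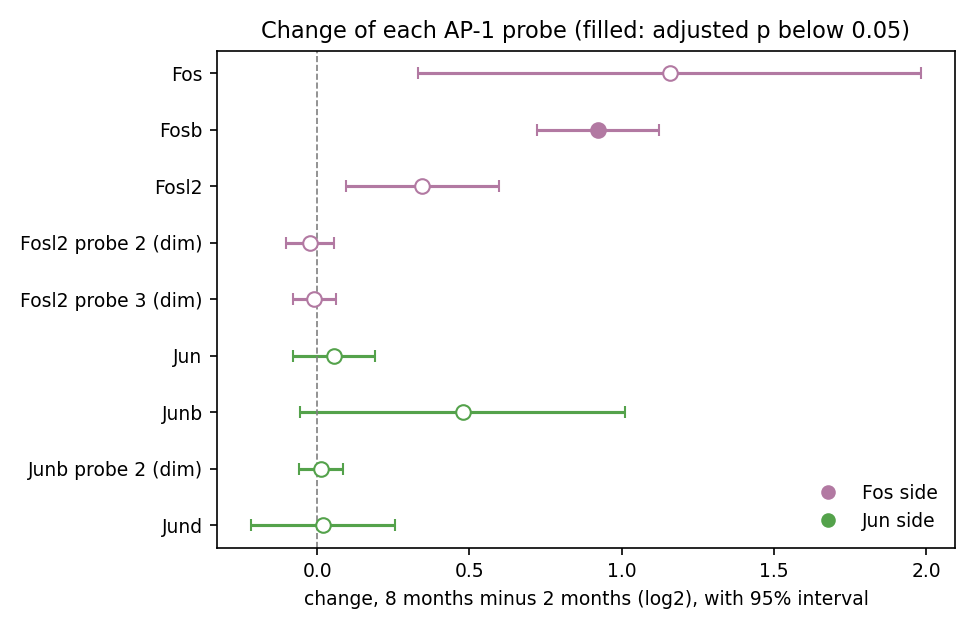
Change of each AP-1 probe, 8 months minus 2 months on the log2 scale, with its 95% interval; Fos-side probes are purple, Jun-side probes green, and a filled point passed the adjusted p of 0.05. Fosb, at 0.92, is the filled point; the interval of Fos, at 1.16, is the widest, and the 3 dim probes lie near 0.

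The Fos and Jun sides were set against each other by centring each tested gene on its mean over the 6 samples and averaging the 3 genes of a side. The Fos side was at −0.56, −0.30 and −0.35 at 2 months and at 0.13, 0.53 and 0.55 at 8 months. The Jun side was at −0.12, 0.07 and −0.22 at 2 months and at −0.004, 0.23 and 0.05 at 8 months. The ages were apart on the Fos side, by 0.43, and overlapped on the Jun side.

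Fos side minus Jun side went from −0.31 ± 0.163 at 2 months to 0.31 ± 0.186 at 8 months (SD, n = 3), a difference of 0.62 with a gap of 0.26 between the ages. No p is given for this score, since the genes were chosen with earlier results known, and 3 samples against 3 cannot give an exact two-sided permutation p below 0.1. The sides were not uniform. Of the 9 pairs of a Fos-side and a Jun-side gene, the Fos-side change was the greater in 8, but the ages were apart in 4 of the 9. Fosl2 changed by 0.13 less than Junb, and Fos and Fosb by 0.68 and 0.44 more than Junb. Against Jun, Fosb changed by 0.87 more and against Jund by 0.90 more, with the ages apart by 0.62 and 0.56. The other pairs with the ages apart were Fos with Junb and Fosl2 with Jun, each by under 0.05.

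**Figure D3:**
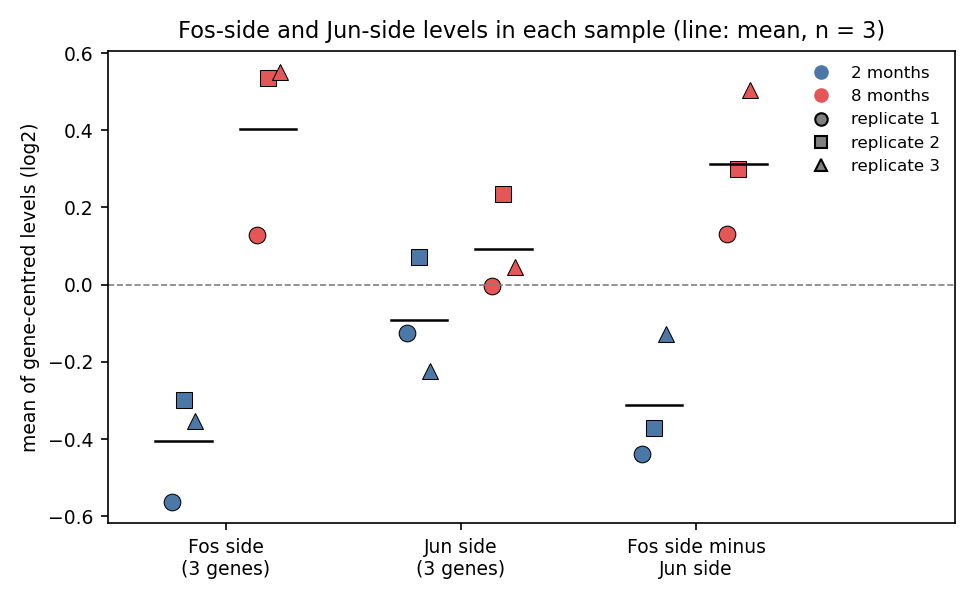
Mean of the gene-centred log2 levels of the 3 Fos-side genes, the 3 Jun-side genes and their difference in each sample, 2 months in blue and 8 months in red, with lines at the means and marker shapes for replicates. The Fos side and the difference are apart between the ages, and the Jun side overlaps.

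Within the 8 month samples the members did not share 1 order. Fos and Junb were both lowest in replicate 1, at −0.83 and −0.49 from their 8 month means, and highest in replicate 2, at 0.68 and 0.44. Fosb was highest in replicate 3, at 0.20, and Fosl2 was lowest in replicate 2, at −0.18. Jun was highest in replicate 1, at 0.09, and lowest in replicate 3, at −0.08. Among the 2 month samples Fos, Junb and Jund were highest in replicate 2, at 0.24, 0.27 and 0.19 from their means, while Fos was lowest in replicate 1, at −0.33, and Junb in replicate 3, at −0.21. These orders were noticed in the data and were not tested.

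The genes most like each member were found by Pearson r of log2 levels over the 6 samples, as a description, since the points share arrays and the age split. Among the 12046 genes, 50 (0.415%) had an r above 0.95 with Fosb and 15 to 30 (0.125% to 0.249%) with each of the other members. Over only 6 samples, an r this high also arises between unrelated genes. The share to expect without any link was not computed, so the genes named below need not be linked to the members. Most like Fosb were Egr3, an activity-driven zinc finger factor (r = 0.995, change 2.64), Tmem91, a membrane protein (0.995, 0.45), and Vip, the precursor of vasoactive intestinal peptide of amacrine cells (0.993, 0.83), and all 3 rose (limma adjusted p = 0.00129, 0.0374 and 0.00936). Most like Fos were Sfxn1, a mitochondrial serine carrier, Phtf2 and Zfp628, with r of 0.984 to 0.994 and changes of 0.07 to 0.18. Most like Fosl2 were Midn, Maf and Bmx, and most like Junb were Herc3, Rnls and Iglon5, with changes of 0.06 to 0.36. Most like Jun were Dedd2, Sod2, the mitochondrial superoxide dismutase, and Lipo3, and most like Jund were Mvp, Anxa9 and Olfr703. Of the 15 genes most like members other than Fosb, none passed (limma, smallest adjusted p = 0.267).

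The genes around AP-1 were taken by function. Of 6 tested bZIP partners of Fos and Jun, 0 passed, with a median change of 0.02, and 1 was higher at an unadjusted p below 0.05. That gene was Maf, with a change of 0.13 (SE 0.0516, limma adjusted p = 0.436). Atf2 and Atf3, which pair with Jun, had changes of 0.11 (SE 0.0876) and 0.03 (SE 0.0502). Of 11 tested factors and coactivators that act on the Fos promoter, 0 passed, also at an unadjusted p below 0.05, and the median was 0.005. Creb1, which acts through the cAMP response element, had a change of −0.10 (SE 0.0762). Mef2c had one of 0.05 (SE 0.0491) and Elk4, a serum response factor partner, one of −0.04 (SE 0.0840). Binding of Creb1 to the marked TGACG matches was not measured.

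Of 13 tested genes of the MAP kinase cascades, 0 passed (limma), with 1 higher and 2 lower at an unadjusted p below 0.05 and a median of −0.01. Map2k1, the MEK1 kinase that activates ERK, had a change of 0.18 (SE 0.0526, adjusted p = 0.282), the GTPase Nras one of −0.18 (SE 0.0549, adjusted p = 0.312) and Map3k11, a kinase upstream of JNK, one of −0.18 (SE 0.0729). Of 8 tested genes for turnover of AP-1 proteins, 0 passed, with 1 higher and 1 lower unadjusted and a median of −0.03. Fbxw7, the ubiquitin ligase subunit that marks phosphorylated Jun for degradation, had a change of 0.28 (SE 0.0620, adjusted p = 0.177), Cul4a, a ligase scaffold, one of −0.17 (SE 0.0691) and Det1 one of −0.06 (SE 0.0568). These transcript levels say nothing of kinase activity or protein.

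Of 14 tested genes described as AP-1 targets in other tissues, 0 passed (limma), 1 was higher at an unadjusted p below 0.05 and 11 changes were positive, with a median of 0.06. Pdyn, the precursor of the dynorphin peptides, went from 9.48 ± 0.289 to 10.23 ± 0.101 (SD, n = 3), a change of 0.75 (SE 0.137, adjusted p = 0.121). Hmox1, the stress-induced haem oxygenase, had a change of 0.13 (SE 0.0583) and the kinase gene Cdk5 one of −0.18 (SE 0.0792). The tissue protease gene Plau was at background at both ages, at 7.18 and 7.19.

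Of 14 other immediate early genes tested, 2 rose and 0 fell (limma), with 5 higher and 1 lower at an unadjusted p below 0.05 and a median of 0.10. Those that rose were Egr3 and Egr4, with changes of 2.64 (SE 0.138) and 2.26 (SE 0.215), while Arc, a protein of the activated synapse, had a change of 0.89 (SE 0.171, adjusted p = 0.137). Egr1 was at 9.90, 10.63 and 11.05 at 2 months and at 11.81, 13.18 and 12.54 at 8 months, lowest in replicate 1 and highest in replicate 2 at the later age, as were Fos and Junb. Egr3, like Fosb, was highest in replicate 3. The gene lower at an unadjusted p below 0.05 was Dusp6, with a change of −0.37 (SE 0.105, limma adjusted p = 0.268). Dusp1, a phosphatase gene induced with Fos in many tissues, went from 10.00 ± 0.204 to 10.04 ± 0.411. Klf4 went from 7.29 to 7.28, near background at both ages, where a probe has little room to change.

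**Figure D4:**
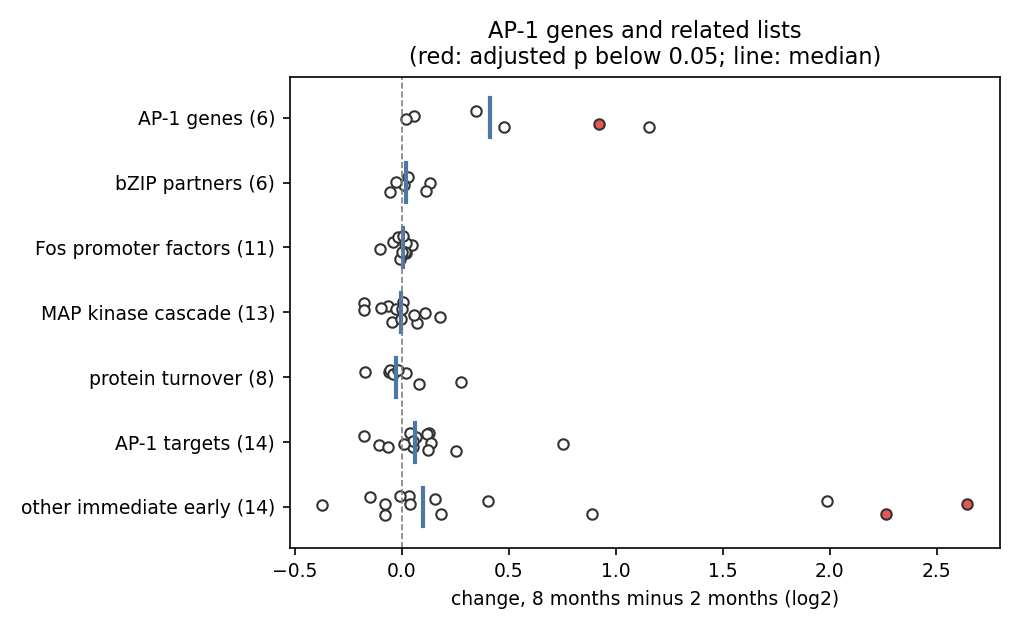
Change of each tested gene, 8 months minus 2 months on the log2 scale, for the AP-1 genes and 6 related lists, with the number tested in parentheses, the list median as a line and genes with an adjusted p below 0.05 in red. The AP-1 median of 0.41 lies to the right of the other medians, which run from −0.03 to 0.10, and the red points are Fosb, Egr3 and Egr4.

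Other measures also differed between the ages. The mean log2 level of 6 red blood cell genes was 8.92 to 9.67 at 2 months and 8.36 to 8.39 at 8 months. All 4 tested members were lower without overlap, as were 914 of all 12046 tested genes. Of the 4, Slc4a1 was near background and changed by only −0.03. The other tested members, Hbb-bs, Hba-a1 and Hbb-bt, changed by −1.69, −1.48 and −1.69. The mean level of 6 cone genes was 9.79 to 10.24 at 2 months and 7.99 to 8.83 at 8 months. That of 4 rod genes was 7.99 to 8.35 and 7.68 to 7.92, also without overlap, but the genes moved in both directions. Of the 3 tested rod genes, Sag changed by −1.81 (SE 0.315), Nrl by 0.13 (SE 0.0533) and Gnat1 by 0.15 (SE 0.118). In bulk samples, fewer cells of a type and less RNA per cell cannot be told apart. The mean level of 15 retinal neuron markers was 9.67 to 9.75 in every sample, but single markers moved in both directions. Of the 12 tested, 0 passed (limma), and at an unadjusted p below 0.05, 1 was higher and 2 were lower. These were Gad2, with a change of 0.51, and Lhx1 and Prkca, with −0.44 and −0.21. Pigment epithelium (11 genes) was at 8.98 to 9.67 and 8.50 to 9.05, skeletal muscle (8) at 7.29 to 8.53 and 7.23 to 7.41, lens (8) at 7.53 to 7.99 and 7.23 to 7.75, vascular cells (9) at 7.78 to 8.18 and 7.78 to 7.90, microglia (9) at 7.61 to 7.87 and 7.68 to 7.75, and Müller glia (7) at 11.53 to 11.68 and 11.57 to 11.69, at 2 and 8 months.

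The red blood cell covariate was the mean level of the 4 tested red blood cell genes. All 4 were lower at 8 months without overlap, so this fit cannot separate their level from age. With this covariate, Fosb had a change of 0.91 (SE 0.186, limma adjusted p = 0.434) and did not pass, and Fos had one of 1.62 (SE 0.730). On the Jun side, Junb then had a change of 1.01 (SE 0.429), Jund one of 0.37 (SE 0.155) and Jun one of 0.10 (SE 0.124), and none passed (limma, smallest adjusted p = 0.719). The X-linked Xist ranged from 10.48 to 11.10 in 4 samples but was at 9.40 in 2 month replicate 1 and at 8.73 in 2 month replicate 2. The Y-linked Eif2s3y was at 7.79 and 8.27 in those samples and from 7.10 to 7.18 elsewhere, so that the sexes were not balanced over the ages. With Xist as a covariate the change of Fosb was 0.90 (SE 0.110, limma adjusted p = 0.139), that of Junb 0.69 (SE 0.259) and that of Jund 0.17 (SE 0.0814). In 2 month replicate 3, where Xist was at 11.10 and Eif2s3y at 7.10, Fosb was at 7.25 and Fos at 9.26. Low Xist occurred only at 2 months, so neither the covariate nor that single sample can separate sex from age. The part of sex in the AP-1 differences was not tested. Heat shock genes, which respond to handling, had a mean level over 9 genes of 9.58 to 9.69 at 2 months and 9.67 to 9.75 at 8 months, overlapping, and 0 of 9 passed (limma, 2 higher at an unadjusted p below 0.05). Bag3, a co-chaperone gene, had a change of 0.39 (SE 0.0764, adjusted p = 0.14) and Hspb1, the small heat shock protein Hsp27, one of 0.18 (SE 0.0530). The part of tissue handling and of time from death to lysis in the AP-1 differences was not tested.

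**Figure D5:**
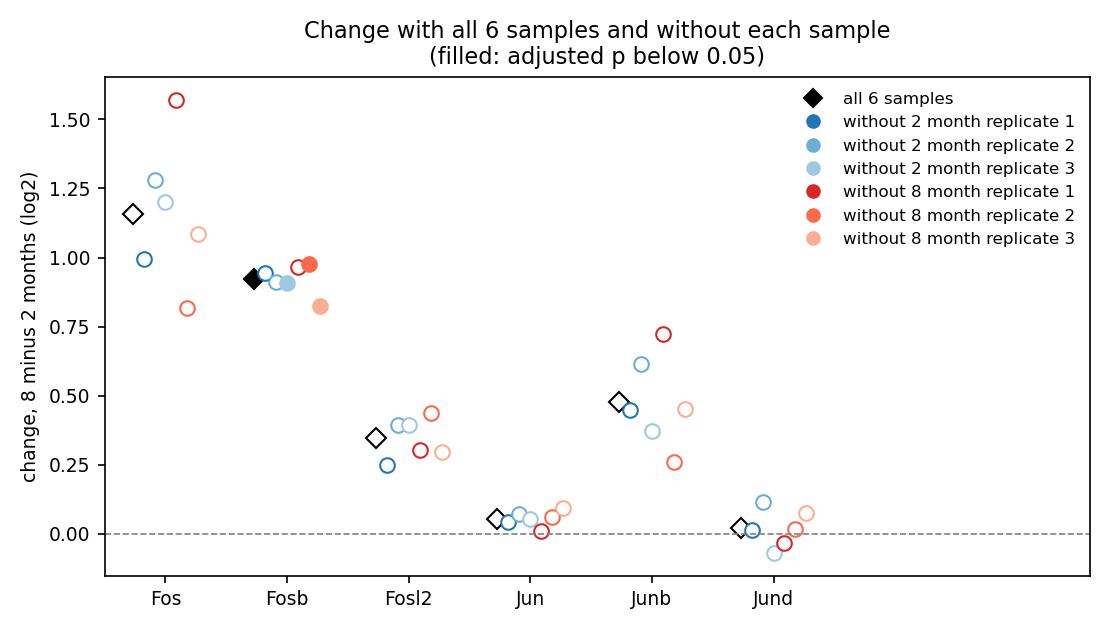
Change of the 6 AP-1 genes, 8 months minus 2 months on the log2 scale, with all 6 samples (diamond) and without each sample in turn (circles); filled symbols have an adjusted p below 0.05. Fosb stays between 0.82 and 0.98 and loses the call without 3 of the 6 samples, and Fos runs from 0.82 to 1.57.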

How the data were processed

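The deposited table gives 1 log2 value per probe and sample, on a scale read from its range of 6.98 to 14.48; per the labels' protocols, biotinylated cRNA was hybridised to Illumina arrays. The sources used here give no background correction, normalization or software. The authors' sorted log2 columns differ by at most 0.00307, as after quantile normalization, and whether the transform is a plain log2 cannot be read from them. Array correlations were 0.99 to 0.996. The number of arrays limits the precision.

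Groups and replicate numbers came from the titles; for 2 months, the titles' replicates 1, 2 and 3 are called 1, 1 and 2 in the sample descriptions, and all 3 were counted as separate samples. Probes were named by GEO's platform annotation (34885 with 1 symbol, 18 with several, 10378 with none). R 4.3.3 and limma 3.58.1 (lmFit, eBayes, no covariate) gave changes and tests, and the fit was tested on simulated data. Of 207 list entries, 21 had no named probe here and 4 matched through a newer symbol. Promoter windows were matched by symbol.

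The AP-1 members and all lists were chosen with earlier results of these data known. Named are all member probes, the 3 genes of each related list with the smallest p, and the 3 most correlated genes per member, clone names left out. Egr1, Plau, Dusp1, Dusp6, Klf4, Bag3, Hspb1 and the single red blood cell, rod and retinal neuron genes were named after their values were seen. Alternatives covered normalization, filter, background, variance prior, probe choice, covariates, a replicate block and leaving out each sample.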

Additional observations from a re-analysis of the deposited data

How the results depend on the processing

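The 6 AP-1 genes kept the sign of their change in the 13 alternatives that used all samples. The count of AP-1 genes called higher, 1 (Fosb), was 0 with no filter on dim probes, with the red blood cell level as a covariate and with Xist as a covariate (3, 2 and 3 at an unadjusted p below 0.05, limma), and 0 to 1 when 1 sample was left out. With no filter the change of Fosb stayed at 0.92 (SE 0.0841), and the adjustment ran over 19057 genes. With the red blood cell and Xist covariates the change was 0.91 and 0.90, with larger SE of 0.186 and 0.110. These losses were not tested further. Fos side minus Jun side, 0.62, was 1.13 with background subtraction and 0.53 to 0.72 without 1 sample. It was 0.51 with the red blood cell level as a covariate and 0.49 with Xist as a covariate. Without 1 sample the change of Jund ran from −0.0695 to 0.117, that of the dimmest Fosl2 probe from −0.0253 to 0.00843 and that of the dim Junb probe from −0.00467 to 0.0304, so these have no settled sign. Over all genes, 19 were called higher and 8 lower. These counts were 5 and 2 with no filter, 38 and 35 with the stricter filter, 44 and 48 with a variance trend, 8 and 3 at probe level, 0 and 0 with the red blood cell covariate (461 and 375 at an unadjusted p below 0.05), 2 and 0 with Xist (514 and 535), 2 to 12 and 0 to 19 without 1 sample, and 25 lower with background subtraction. The 0 arose without 2 month replicate 1 (593 lower unadjusted). Same-numbered samples deviated together with correlations of 0.0239, 0.139 and 0.16, so the numbers were not taken as pairs. With the replicate block 14 genes were higher and 18 lower, Fosb kept its call (limma adjusted p = 0.0323) and Fos did not pass (adjusted p = 0.0923). Signal over background limits what can be said of the 3 dim probes and of the size of the changes: with background subtraction Fosb was at 2.28, Fosl2 at 0.64 instead of 0.35, Junb at 0.75 instead of 0.48 and Fos at 1.34 instead of 1.16.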
